A study of Rattus norvegicus with 59 samples.

Results

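Cartpt encodes the precursor of the cocaine- and amphetamine-regulated transcript (CART) peptides. The array annotation gives 1 probe set with the symbol Cartpt (NCBI Gene ID 29131), out of 4736 genes that are named by probe sets with a single symbol, and that probe set is described here across brain regions and rat lines. The gene was chosen because earlier results of these data showed it high in accumbens, so its levels by region are given as a description, with no test. Its line differences played no part in the choice and were tested.

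RNA was taken from the nucleus accumbens, striatum, hippocampus, amygdala and frontal cortex (labelled cortex) of adult male rats of inbred lines that were selected for alcohol preference (iP, line iP5C, animals 1 to 6) or for non-preference (iNP, line iNP1, animals 7 to 12). Every region of every rat was hybridised to its own 3′ Affymetrix rat array, which gives 59 arrays. Each region holds 6 iP and 6 iNP rats, except cortex, which has 5 iP rats because animal 6 was not analysed here. All the rats were handled daily and had water and rat chow, the labels name no alcohol or drug treatment, and each line is a single inbred strain, so selection for drinking and chance fixation during inbreeding cannot be told apart.

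CART peptides are made as a longer precursor, which enters dense core vesicles and is cut by prohormone convertases before release. In the brain the gene is known for its expression in the hypothalamus, where the peptides take part in the control of feeding, and in the nucleus accumbens, where they are found in GABAergic medium spiny neurons and have been studied in responses to psychostimulants. The central amygdala also contains CART cells. Transcription of the gene is known to respond to cyclic AMP and protein kinase A through CREB, which binds the cyclic AMP response element of its promoter.

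The stretch of promoter that holds this element is shown because cyclic AMP signalling genes are described with Cartpt. It is from RefSeq, build GRCr8, chr2:32991236-32991395 on the minus strand, and covers the 160 bases upstream of the transcription start that the table gives, 5′ to 3′. The capitals mark the letters TGACGTCA, the full cyclic AMP response element, at -142 to -135 from the start, and TATAA, a core of the TATA box, with its first base at -31.
Cartpt promoter: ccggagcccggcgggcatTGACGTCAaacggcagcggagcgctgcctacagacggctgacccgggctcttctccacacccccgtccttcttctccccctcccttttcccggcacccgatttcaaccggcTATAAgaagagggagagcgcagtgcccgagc
TGACGTCA is its own reverse complement and does not overlap the other motif. It was present in the 250 bases before the start in 531 of 33469 rat promoters (1.59%), and TATAA on the gene strand was present in 5599 (16.7%; 24.0% on either strand). Of 9 other neuropeptide genes that were tested and have a promoter entry, none held TGACGTCA in the same window. The window is counted from the annotated start, so an element near another start of a gene would be missed. The absence of a match is therefore not evidence that a gene lacks the element. A match of letters is a description of the sequence and not a measured binding site.

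Values are deposited signals in array units, on which the trimmed mean of each array was 1000, and array medians lay between 251 and 391. Of the 59 arrays, 54 correlated best (by the median) with arrays of the region on their label. The 5 others were cortex of iP animal 5 and accumbens of iP animal 4, both nearest amygdala, amygdala of iP animal 1, nearest cortex, and amygdala of iNP animals 7 and 8, nearest accumbens. Cortex of iP animal 5 also had a GAPDH 3′ to 5′ signal difference of 6.14 (log2), where no other array exceeded 0.44. These arrays were kept. Cartpt levels by region, Cartpt line differences and the separation of accumbens are also given without some or all of them. The other results rest on all arrays unless stated.

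Cartpt was high in accumbens of every rat. Accumbens signals in iP animals 1 to 6 were 1303, 1141, 1795, 2069, 1490 and 1929. In iNP animals 7 to 12 they were 1853, 2019, 2081, 1606, 1392 and 2313. The lowest accumbens array was iP animal 2 and the highest iNP animal 12, and the lines overlapped over most of their range. The 12 arrays had a log2 signal of 10.74 ± 0.31 (SD, n = 12), a geometric mean of 1713, and spanned a range of 2.03-fold.

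All 47 arrays of the other regions lay between 41.9 and 431, with a median of 214. Striatum came next, with signals from 173 to 330 (median 277) in iP and from 238 to 431 (median 333) in iNP, and a log2 signal of 8.16 ± 0.36 over both lines (SD, n = 12). Hippocampus had 7.76 ± 0.52 (SD, n = 12), amygdala 7.56 ± 0.61 (SD, n = 12) and cortex 7.15 ± 0.81 (SD, n = 11). The corresponding geometric means were 286, 216, 189 and 142. Outside accumbens, the arrays of neighbouring regions in this order overlapped. Striatum and hippocampus were 0.40 apart, against SDs of 0.36 and 0.52, and the later neighbours were closer together than either SD. Without the 5 arrays whose profile was nearest another region, the level of each region moved by less than its SD.

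Amygdala, which is known to hold CART cells in its central nucleus, overlapped in Cartpt with striatum, hippocampus and cortex. Its signals in iP animals 1 to 6 were 232, 154, 63.0, 164, 190 and 189, and in iNP animals 7 to 12 they were 325, 341, 181, 175, 199 and 219. The highest values were those of iNP animals 7 and 8, and the lowest was iP animal 3, far under the rest. The labels name no nucleus, and the share of central amygdala in each dissection was not measured.

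Cortex had the widest spread. Its iP arrays gave 72.2, 41.9, 255, 227 and 152 in animals 1 to 5, and its iNP arrays ran from 111 to 227 with a median of 176. Cortex of iP animal 2 was the lowest of all 59 arrays, the other low values being amygdala of iP animal 3 and cortex of iP animal 1, and the lines overlapped. The mean log2 signal of Cartpt over the arrays outside accumbens stood at percentile 40.6 of 8740 probe sets, so it passed the filter, which dropped the lowest 40%, without the accumbens arrays. Detection calls were not used here, and how much of a signal near 200 is background of the array was not tested.

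**Figure D1:**
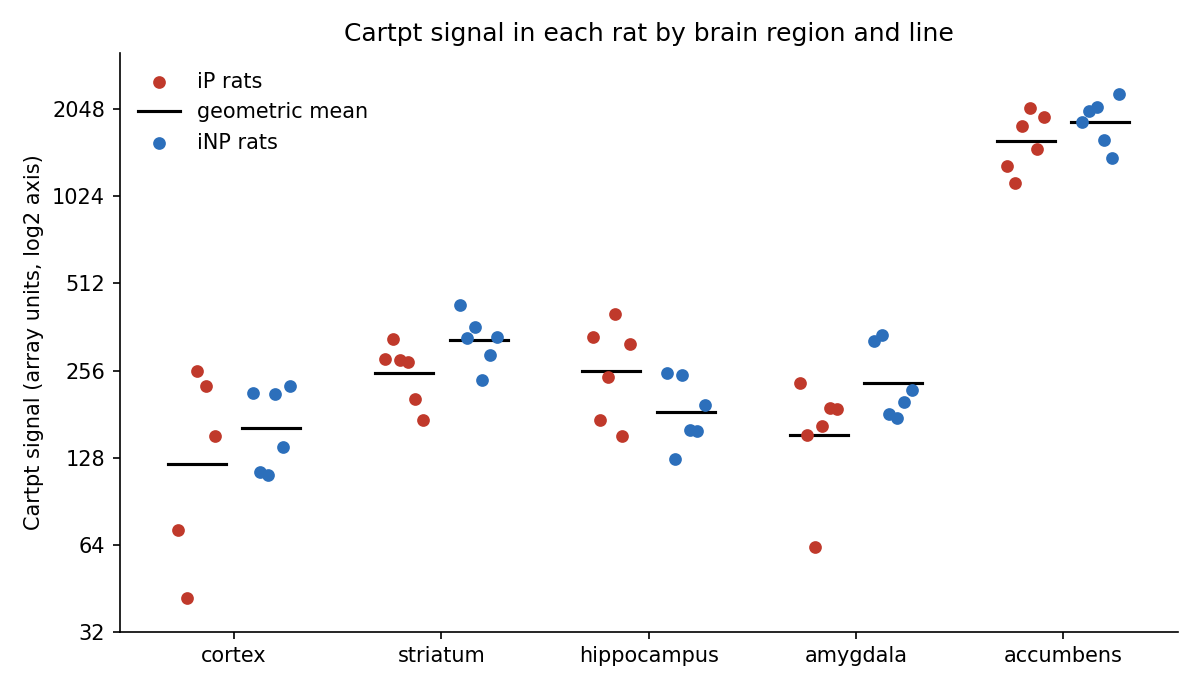
Cartpt signal (array units, log2 axis) of each rat in 5 brain regions, with iP rats in red, iNP rats in blue and bars at the geometric mean of each group. The 12 accumbens arrays lie between 1141 and 2313 and the 47 arrays of the other regions between 41.9 and 431.

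Set against the other regions of the same rat, the accumbens excess was of similar size in both lines. Accumbens exceeded the mean of the other regions by 3.07 ± 0.23 (log2, SD over 12 rats), an 8.41-fold difference, with a range from 2.65 in iNP animal 7 to 3.33 in iNP animal 9. The mean was 3.06 ± 0.20 in the 6 iP rats and 3.09 ± 0.28 in the 6 iNP rats; for iP animal 6 it is over 3 regions, since it lacks cortex.

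By region, the accumbens excess was 2.58 ± 0.45 over striatum (5.99-fold, 12 rats), 2.98 ± 0.54 over hippocampus (7.92-fold), 3.18 ± 0.65 over amygdala (9.08-fold) and 3.57 ± 0.64 over cortex (11.9-fold, 11 rats), each as log2 mean ± SD. Its sign was the same in every rat, and the smallest single value was 1.79 over striatum. Differences between the remaining regions were smaller. Striatum exceeded cortex by 1.07 ± 0.90, with 11 of 11 rats above 0. Amygdala minus striatum was -0.60 ± 0.62 (2 of 12 rats above 0), hippocampus minus striatum -0.40 ± 0.66 (3 of 12), and amygdala minus hippocampus -0.20 ± 0.88 (6 of 12). Amygdala minus cortex was 0.41 ± 1.12 (7 of 11 rats above 0) and hippocampus minus cortex 0.55 ± 0.90 (8 of 11).

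Cartpt separated accumbens more widely than any other tested probe set. Of 5244 probe sets, 9 (0.172%) had every accumbens array above every array of the other regions, a count given as background for a gene picked on this pattern. For Cartpt the lowest accumbens signal, 1141, was 2.65-fold above the highest signal outside, 431 in striatum of iNP animal 7. The next was Nmbr, which encodes a neuromedin B receptor, with a gap of 1.42-fold. Its log2 means outside accumbens, 7.23 to 7.54, were under the 7.67 of Cartpt, which itself passed the filter there only narrowly. Whether Nmbr and the other separating probe sets would pass the filter without their accumbens arrays was not checked. Pcp4l1 had a gap of 1.28-fold, a pair of probe sets of the natriuretic peptide gene Nppa 1.21-fold and 1.08-fold, and the cold shock domain gene Csdc2 1.13-fold. Dlx5, a homeobox transcription factor of GABAergic forebrain neurons, had 1.03-fold, the antiproliferative gene Btg1 1.02-fold and the collagen gene Col5a2 1.01-fold. Cartpt kept the widest gap when cortex of iP animal 5 and amygdala of iP animal 1 were left out (9 probe sets) and when the other 3 arrays were left out too (10 probe sets).

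Because Cartpt was chosen as high in accumbens in these data, its separation of the accumbens arrays is no independent check of their dissection. Cartpt placed all 12 arrays labelled accumbens above all 47 others, including the array whose whole profile was nearer amygdala. That array, accumbens of iP animal 4, had a Cartpt signal of 2069, the highest of the 6 iP rats and the 3rd of 12. Cartpt and the other 8 probe sets were picked for separating every accumbens array, this one included, so their levels on it are no separate check of its dissection. Its score on medium spiny neuron markers, 0.74, was below those of the other 11 accumbens arrays. The score is the mean over 11 marker genes of log2 signal minus the gene's mean over all arrays.

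Cartpt does not serve as a check of amygdala dissection either. No probe set (0 of 5244, 0%) had every amygdala array above every other array, and Cartpt in amygdala overlapped that in striatum, hippocampus and cortex. With cortex of iP animal 5 and amygdala of iP animal 1 left out, 12 probe sets separated amygdala, and 23 did with all 5 arrays left out; Cartpt was not among them. On amygdala of iP animal 1, nearest cortex, Cartpt was 232, the 3rd highest of 12, and the genes that separate accumbens varied: Csdc2 (607, against 1055 to 1449 on the other amygdala arrays) and Dlx5 (128) were the lowest of 12, Pcp4l1 was 11th, whereas Btg1 was 6th, Nmbr 5th and Col5a2 3rd. The brightest Nppa probe set, which is not one of the pair that separated accumbens, was 9th. On cortex of iP animal 5, nearest amygdala, Cartpt was 152, the 6th of 11 cortex arrays. The Cartpt values of these arrays lay inside the range of both regions concerned.

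Amygdala of iNP animals 7 and 8, whose profiles were nearest accumbens, had the highest Cartpt signals of the 12 amygdala arrays, 325 and 341. The lowest accumbens array was 3.51-fold and 3.35-fold above them. Since Cartpt was picked as high in accumbens, this gap is no separate check of their dissection. The medium spiny neuron scores of these arrays, 0.35 and 0.54, were also the highest of the 12 and reached toward the accumbens range of 0.74 to 1.28. Their scores on hypothalamic genes, formed in the same way, were the highest of the 12 too, at 0.27 and 0.37. Whether those genes follow hypothalamic tissue was not tested. The other genes that separate accumbens were not uniformly high on these arrays. On animal 7, Dlx5 ranked 1st of the 12 amygdala arrays, Nmbr 3rd, Pcp4l1 5th, Col5a2 6th, Csdc2 7th, Btg1 9th and the same Nppa probe set 12th. On animal 8, Pcp4l1, Csdc2 and Btg1 ranked 1st, Dlx5 and Col5a2 2nd, and Nmbr and that Nppa probe set 7th. The part that striatal, accumbens or hypothalamic tissue in these samples plays in their Cartpt signal was not tested.

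**Figure D2:**
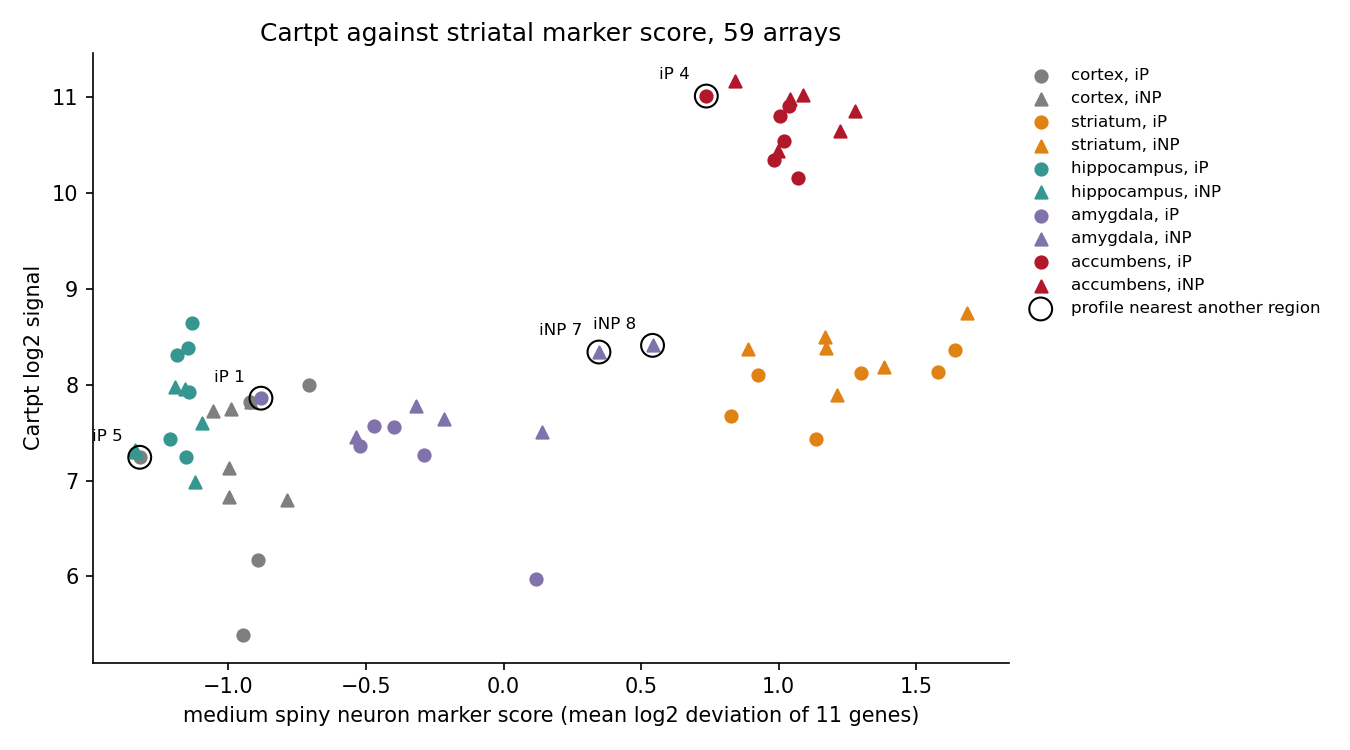
Cartpt log2 signal (vertical) against the medium spiny neuron marker score (horizontal, mean log2 deviation of 11 genes) on 59 arrays, coloured by region, with circles for iP and triangles for iNP. Rings mark the 5 arrays whose profile was nearest another region. Accumbens and striatum share the score range above 0.74, but Cartpt reaches 10.16 only in accumbens.

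Cartpt differed from the general markers of medium spiny neurons, the main neurons of both accumbens and striatum, in its excess over striatum. All 11 tested members of the 18 in the medium spiny neuron list were higher in accumbens than in the mean of the other regions by limma at an adjusted p under 0.05, where 645 of 5244 probe sets (12.3%) were higher and 450 (8.58%) lower. The largest of these differences were those of Rgs9 (2.85), Gnal (2.18) and Drd1 (2.13), beside 3.07 for Cartpt. Against striatum of the same rats, however, the 11 genes ran from -0.57 to 0.16 (log2), with a median of -0.26 and 4 of 11 above 0, beside 2.58 for Cartpt. In bulk tissue, more cells that express a gene and more RNA in each cell cannot be told apart.

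Among them, the dopamine receptor gene Drd1 differed between accumbens and striatum by 0.04, and the peptide precursor genes Tac1 (substance P), Pdyn (dynorphin) and Penk (enkephalin) by 0.08, 0.03 and -0.17. Gnal, a G protein alpha subunit that couples dopamine and adenosine receptors to adenylyl cyclase, differed by 0.16. The adenosine receptor gene Adora2a (-0.47), the G protein regulator gene Rgs9 (-0.44), the phosphatase gene Ptpn5 (-0.44), the phosphodiesterase gene Pde1b (-0.33), the adenylyl cyclase gene Adcy5 (-0.26) and Arpp21 (-0.57), which encodes a phosphoprotein regulated by cyclic AMP, had lower means in accumbens. These are within-rat differences given without a test, and none came near that of Cartpt. Of the genes with lower means, Adora2a, Ptpn5 and Arpp21 had 0 of 12 rats above 0, Adcy5 had 1 and Rgs9 had 3. Pde1b had 6 of 12 rats above 0, and its lowest value was -3.06. The Pdyn probe set hardly told striatum from cortex (log2 means 12.18 and 12.03), so its small difference says little about Pdyn RNA.

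**Figure D3:**
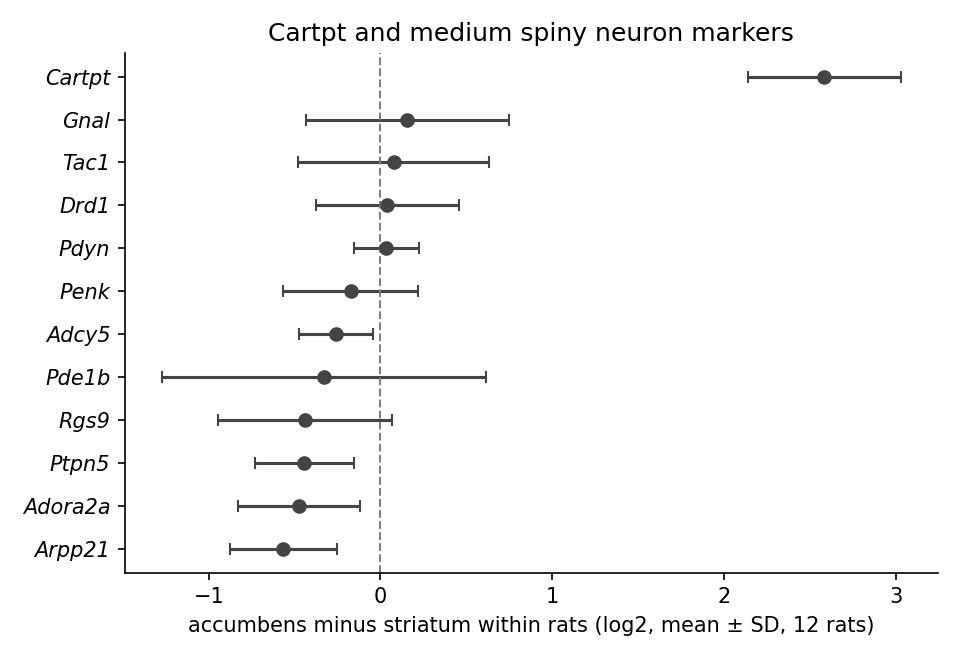
Accumbens minus striatum within rats (log2, mean ± SD over 12 rats) for Cartpt and the 11 tested medium spiny neuron markers. The markers lie between -0.57 and 0.16, and Cartpt at 2.58.

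Markers of neighbouring tissue were counted the same way, since accumbens can take in basal forebrain and the amygdala borders other nuclei. Of 6 tested genes of the hypothalamus, a region known for high Cartpt, none was called higher in accumbens, 1 lower and 5 did not pass (median 0.13). The hypothalamic score ran from -0.38 to 0.33 over the accumbens arrays and from -0.42 to 0.37 over those of the other regions. Its median was highest in accumbens (0.18), against -0.10 in striatum, -0.05 in amygdala, 0.06 in cortex and 0.07 in hippocampus. The lower gene was Hcrt, the orexin precursor (-0.17), which was brightest in hippocampus (geometric mean 1147). The geometric means of Ghrh ran only from 1132 to 1224 over the regions. No array is of hypothalamus, so whether these probe sets follow hypothalamic tissue was not tested, and the counts cannot show its absence. Of 3 basal forebrain cholinergic genes 2 were higher, with a median of 0.39, and of 7 myelin genes 4 were higher, with a median of 0.22. Of 5 cortical projection neuron genes 4 were lower (median -0.39), and of 6 amygdala genes 2 were higher (median 0.21). The scores of these lists were not highest in cortex and amygdala, so the lists do not mark those regions here. The 1 tested thalamic gene, Calb2, was higher (0.80), and the 1 tested choroid plexus gene, Ttr, did not pass (-0.69). Among all probe sets 12.3% were higher and 8.58% lower, with a median of 0.02. None of the values of these lists came near the Cartpt excess of 3.07, and their part in it was not tested.

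Other neuropeptide precursors showed a mixed pattern in accumbens. Of 14 tested members, 6 were higher, 2 lower and 6 did not pass, beside 12.3% higher and 8.58% lower among all probe sets, and the median was 0.22. Penk (1.92) and Tac1 (1.94) rose most, the stress peptide gene Crh rose by 0.65 and Tac3, the rat neurokinin B precursor, by 0.54. Vip, which encodes vasoactive intestinal peptide (-0.81), and Cck, the cholecystokinin precursor (-0.44), were lower. In accumbens and striatum Penk had geometric means of 8669 and 9783 and Tac1 of 6569.9 and 6233, so neither separated the regions, whereas Cartpt was at 1713 and 286.

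Of 12 tested genes whose products handle peptide precursors, 2 were higher in accumbens, near the 12.3% of all probe sets, 5 were lower, against 8.58% of all probe sets, and 5 did not pass (median -0.12). The granin gene Scg2 rose by 0.68 and Vgf, a granin-like precursor, by 0.23. Pcsk2, which encodes prohormone convertase 2, an enzyme known to cut the CART precursor, was lower by -0.57 (limma adjusted p = 1.93e-08), and by -0.79 against striatum of the same rats, with 0 of 12 rats above 0. The granin gene Scg3 (-0.41) and the carboxypeptidase gene Cpe (-0.16) were lower too.

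Of 15 tested genes of cyclic AMP and CREB signalling, 6 were called higher in accumbens, none lower and 9 did not pass, beside 12.3% higher and 8.58% lower among all probe sets. The list's median was 0.06, against 0.02 for all probe sets. Adcy5 (0.66), the protein kinase A regulatory subunit gene Prkar2b (0.55), the immediate early genes Fos (0.48), Junb (0.38), Nr4a1 (0.27) and Egr1 (0.21) were the calls. Against striatum, Fos differed by 0.40 and Egr1 by -0.11. Adcy5 is also in the medium spiny neuron list, and Penk, Pdyn and Tac1 are in both that list and the neuropeptide list.

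The genes most like Cartpt over all 59 arrays, among 3173 other tested genes, were Dlx5 (Pearson r = 0.79), the vesicular GABA transporter gene Slc32a1 (0.79), Nmbr (0.78), Btg1 (0.77), Pcp4l1 (0.77), Csdc2 (0.76), the GABA-synthesising enzyme gene Gad1 (0.75) and Chn2, a Rac regulator (0.74). The arrays share regions and rats, so these correlations describe the region pattern and carry no p. None of them reached the accumbens level of Cartpt relative to its own mean over the 5 regions, which was 2.47 (log2); Pcp4l1 had 1.67, Nmbr 1.55 and Dlx5 1.28. Pcp4l1 and Dlx5 were also above their mean in striatum (0.54 and 0.55), whereas Nmbr (-0.43) and Cartpt (-0.11) were not. Medium spiny neuron markers ranked lower, from Drd1, the 17th gene (r = 0.65), and Rgs9, the 21st (0.63), to Arpp21, the 501st (0.26). Of the 8 genes, 6 have a promoter entry and 0 held TGACGTCA. Only 1.59% of all rat promoters held it, so 0 of 6 is no result about these genes.

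**Figure D4:**
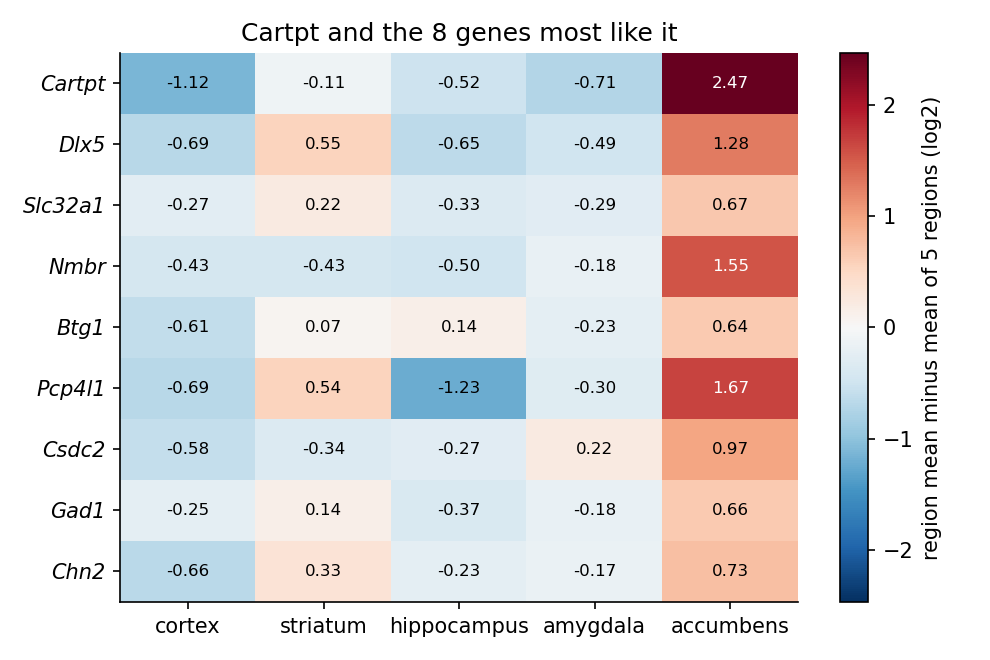
Region means minus the mean of the 5 regions (log2) for Cartpt and the 8 genes most like it over 59 arrays. Every gene is highest in accumbens, from 0.64 (Btg1) to 2.47 (Cartpt).

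Within a single region, likeness rests on 12 rats. In accumbens the genes whose signal ran most closely with Cartpt were the protease inhibitor gene Timp1 (r = 0.89), the neurochondrin gene Ncdn (0.86), Igfbp2, which binds insulin-like growth factors (0.86), and the diacylglycerol kinase gene Dgkz (0.86); those most opposed were the nociceptin precursor gene Pnoc (-0.89) and the growth factor receptor gene Igf1r (-0.86). In amygdala they were the scaffold gene Cask (0.95), the phosphatase gene Ppm1a (0.85), the mitotic kinase gene Plk1 (0.85) and the Mediator subunit gene Med4 (0.81), and the opposed genes were B4galnt1 (-0.86), which encodes a ganglioside synthase, and the adaptor gene Ap1s1 (-0.79). No gene was named for both regions, which says nothing about the regions, since so few of 3173 genes were named. The named genes are the extremes of 3173 genes, so they have no test.

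The lines did not differ in Cartpt at the threshold in any region. In accumbens the iP mean was 10.63 ± 0.34 and the iNP mean 10.85 ± 0.27 (log2, SD, n = 6 each). The difference, iP minus iNP, was -0.22 ± 0.16 (log2, SE; 95% interval -0.57 to 0.12; limma adjusted p = 0.794), a fold of 0.856 with an interval from 0.674 to 1.09. In that comparison 30 of 5244 probe sets (0.572%) were called. An accumbens level in iP between 0.674 and 1.09 times that in iNP is inside this interval, and the lines cannot be called alike from it. Without iP animal 4, the accumbens array nearest amygdala, the difference was -0.30 (limma adjusted p = 0.778).

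In amygdala the difference was -0.59 ± 0.31 (log2, SE; interval -1.26 to 0.08; limma adjusted p = 0.602; 38 probe sets, 0.725%, called). The 2 highest arrays, iNP animals 7 and 8, are those nearest accumbens, and the lowest is iP animal 3. Without iNP animals 7 and 8 the difference was -0.33 (limma adjusted p = 0.859), and without iP animal 3 it was also -0.33 (limma adjusted p = 0.683). Without iP animal 1, nearest cortex, it was -0.71 (limma adjusted p = 0.399). The medium spiny neuron scores overlapped between the lines. They ran from -0.88 to 0.12 in iP and from -0.53 to 0.54 in iNP, and the 11 markers had a median difference of -0.32 in amygdala with no calls. Their part in the Cartpt difference was not tested.

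In striatum Cartpt differed by -0.38 ± 0.19 (log2, SE; interval -0.78 to 0.03; limma adjusted p = 0.659), where 44 probe sets (0.839%) were called. Hippocampus was the only region with a higher mean in iP, by 0.47 ± 0.27 (interval -0.12 to 1.05; limma adjusted p = 0.827; 35 probe sets, 0.667%, called). In cortex the difference was -0.42 ± 0.46 (interval -1.42 to 0.59; limma adjusted p = 0.861; 12 probe sets, 0.229%, called), and it was -0.03 without iP animal 2, the lowest of all 59 arrays. Without iP animal 5, the cortex array nearest amygdala, it was -0.50 (limma adjusted p = 0.998).

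Over all regions, with 1 value per rat, the difference was -0.22 ± 0.13 (log2, SE; interval -0.51 to 0.07; limma adjusted p = 0.559). In that fit 139 probe sets (2.65%) were called, 63 higher (1.2%) and 76 lower (1.45%) in iP. Without cortex of iP animal 5 and amygdala of iP animal 1, the Cartpt difference was -0.25 (limma adjusted p = 0.512). A test of whether the line difference of Cartpt varied between regions, with the rat as a block, gave F = 1.98 and an unadjusted p of 0.114 (adjusted p = 0.956). By limma no probe set (0%) was called in that interaction test, and 242 had an unadjusted p under 0.05; no other tool was run on it.

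**Figure D5:**
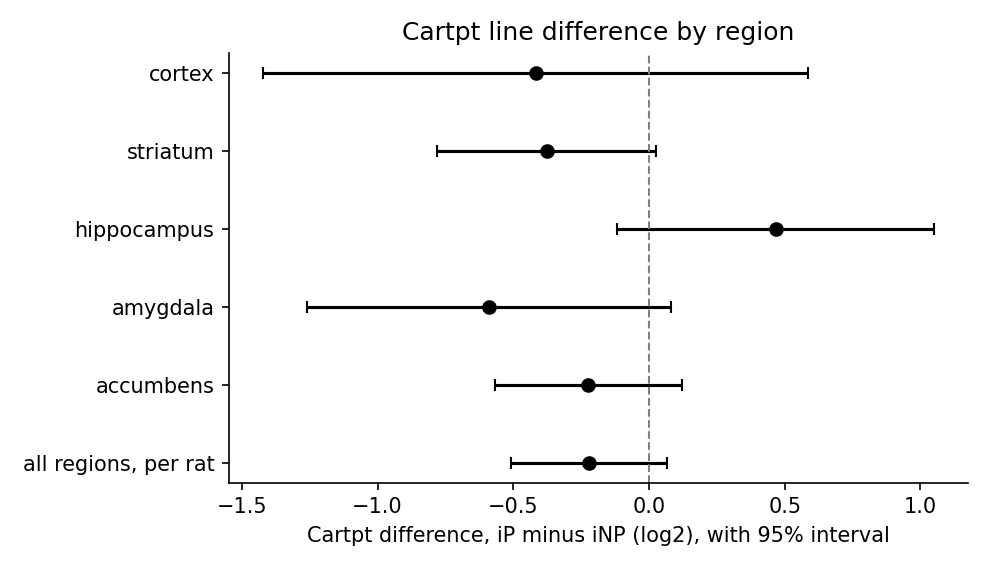
Cartpt difference between lines (iP minus iNP, log2) in each region and over all regions per rat, with 95% intervals. All 6 intervals include 0, from cortex (-1.42 to 0.59) to hippocampus (-0.12 to 1.05).

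Line differences of genes around Cartpt in its pathway were counted beside those of all probe sets. No tested member of the 11 gene lists was called between the lines in any single region, where 0.229% to 0.839% of all probe sets were called. Over all regions 2.65% of all probe sets were called, so a single call in lists this short is no result about a list. In that fit over all regions, 1 of 12 genes of propeptide processing was called, Scg5, which encodes the prohormone convertase 2 chaperone 7B2. It was higher in iP by 0.21 ± 0.04 (limma adjusted p = 0.0146). Of 14 neuropeptide precursors 1 was called, Npy, lower in iP at -0.24 ± 0.05 (limma adjusted p = 0.0146). None of the 11 medium spiny neuron genes (median -0.08) or of the 15 cyclic AMP and CREB signalling genes (median -0.02) was called, beside a median of -0.01 over all probe sets.

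The brightest members of these lists had small differences over all regions. Those of Cpe and Chgb, peptide processing and granule genes, were 0.00 and 0.08. Egr1, Prkacb and Prkar1a, a transcription factor and subunits of protein kinase A, had 0.01, 0.09 and -0.06. The somatostatin gene Sst had -0.05, Cck 0.14 and Pdyn 0.02. Of the lists of neighbouring tissue, Ghrh, Ghrhr and Hcrt (hypothalamus) had -0.12, -0.11 and 0.06, Prkcd and Tac3 (amygdala) 0.15 and -0.07, Mbp, Mobp and Mal (myelin) -0.13, 0.03 and 0.08, and Ngfr, Ache and Slc18a3 (cholinergic) -0.16, -0.04 and -0.02. None of these passed the test.

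Rat by rat, Cartpt within accumbens did not follow the medium spiny neuron score. Over the 12 rats Pearson's r was -0.25 (permutation p = 0.433, adjusted p = 0.944 over 20 relations) and Spearman's rho -0.10 (permutation p = 0.751, adjusted p = 0.837). Without iP animal 4 and iNP animal 7, the rats farthest from the median score, r was -0.26. Within lines r was -0.58 in iP and -0.35 in iNP, 6 rats each.

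In amygdala r between Cartpt and the same score was 0.16 (permutation p = 0.637, adjusted p = 0.980) and rho 0.24 (permutation p = 0.456, adjusted p = 0.837). It became -0.58 without iNP animals 7 and 8, and 0.63 without iP animal 3, which had the lowest Cartpt signal of the 12 and the highest score of the iP rats (permutation p = 0.0370, adjusted p = 0.247). Within the lines it was -0.91 in iP, with animal 3 included, and 0.81 in iNP, and that difference between lines was not tested.

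Of the 20 relations between Cartpt and 4 marker scores (medium spiny neuron, cortical, amygdala and hypothalamic) in 5 regions, none had an adjusted permutation p under 0.05. Unadjusted, 1 by r and 2 by rho were under 0.05. Striatal Cartpt against the hypothalamic score had r = -0.74 (permutation p = 0.00694, adjusted p = 0.139) and rho = -0.66 (permutation p = 0.0229, adjusted p = 0.458), with r = -0.68 without the 2 rats farthest from the median score, -0.80 within iP and -0.98 within iNP. Accumbens Cartpt against the amygdala score had r = -0.58 (permutation p = 0.0510, adjusted p = 0.498) and rho = -0.59 (permutation p = 0.0462, adjusted p = 0.462), with r = -0.66 without the 2 farthest rats. The amygdala score was higher in accumbens (median 0.21) than in amygdala (0.07). The cortical score was higher in striatum (median 0.28) and hippocampus (0.27) than in cortex (0.18). Relations with these scores therefore do not measure amygdala or cortical tissue in a dissection.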

How the data were processed

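Groups follow the sample titles, which match the genotype field, and not the source name, which has iNP throughout. The deposited table holds intensity per probe set on a linear scale, already scaled by the authors (trimmed mean of 1000 on each array); the summarisation program is not given in the sources used. Signals under 16 were set to 16 and log2 transformed. Of 8799 probe sets, 59 controls and the lowest 40% by mean were left out, leaving 5244. Symbols came from the platform annotation (7006 probe sets with 1 symbol, 308 several, 1426 none; 6985 matched to the GRCr8 gene table by gene ID).

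Line differences were fitted in limma 3.58.1 (R 4.3.3) with a variance trend, two-sided, with Benjamini-Hochberg adjustment over 5244 probe sets and calls at an adjusted p under 0.05. Arrays of 1 rat are paired by the animal number in the titles, so the rat was the block in comparisons between regions. Relations between rats used 100000 permutations, two-sided. The brightest probe set stood for a gene. Named were the 8 genes most like Cartpt, within accumbens and amygdala the 4 most like and 2 most opposed, list members called in a line fit and otherwise the 3 brightest, and all tested medium spiny neuron markers. The genes of the accumbens comparison of the lists and of the separation of accumbens fall outside this rule and were chosen after their values were seen. The gene, lists and rules were chosen with earlier results of these data known. Fits were tested on simulated data. Precision is limited by the number of rats, since arrays have no read depth. Replicates are separate rats.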

Additional observations from a re-analysis of the deposited data

Results flagged for a closer look

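In amygdala, iP animal 3 stood apart from its group, with a Cartpt log2 signal of 5.98 where the other 5 iP rats lay between 7.26 and 7.86. In accumbens, iP animal 4 stood apart in the medium spiny neuron score, at 0.737 against 0.982 to 1.07 in the other 5 iP rats. These were 2 of 50 checks for a single outlying array (10 groups by 5 measures, Dixon's criterion), and chance flags about 5% of them.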

How the results depend on the processing

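Of 216 alternative values, 211 kept their direction and their side of the threshold, where these apply. The levels by region, the accumbens excess and the counts of separating probe sets were not tested and have no threshold. The interaction was followed by its p, which has no direction. The 5 values that changed direction concern the relation of Cartpt to the medium spiny neuron score, which was not called under any setting. In accumbens r was 0.0742 with arrays centred on their median. In amygdala it was -0.133 with line means removed, -0.527 without the 5 arrays nearest another region (an alternative chosen after seeing the data), and between -0.128 and 0.631 when 1 rat was left out, the highest without animal 3, with -0.0174 without animal 7 and -0.128 without animal 8. Line differences of Cartpt kept their sign and stayed uncalled in every setting run; leaving out 1 rat gave -0.69 to -0.03 in cortex, -0.47 to -0.27 in striatum, 0.34 to 0.62 in hippocampus, -0.71 to -0.33 in amygdala, -0.31 to -0.13 in accumbens and -0.31 to -0.13 over all regions. With the rat as a random replicate block over all arrays they were -0.41, -0.38, 0.47, -0.59, -0.22 and -0.23 in the same order (limma adjusted p from 0.533 to 0.951), and the interaction with no replicate block had a limma adjusted p of 0.998 (unadjusted 0.124), so the pairing changed no call. Exact permutation p for the 5 regions ranged from 0.0649 to 0.433 (smallest possible 0.00216). A stricter filter on low signal removed Cartpt, so its line tests were not run there. The cause of the changes in the 2 relations was not tested.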
